A study of Homo sapiens with 6 samples.

Results

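Chromosome 17 is described here by the HuR sites that lie on it, sorted by arm and by 1-Mb bin on the human build hg19. The sites were taken by position alone, as every interval assigned to chromosome 17 in the 5 deposited lists, which gave 106258 of 2174584 intervals. The chromosome itself was chosen by its number of sites relative to its length in these same lists. Replicate 1 held 10391 of its 186157 sites there, replicate 2 held 20696 of 405048 and replicate 3 held 25547 of 550681. The list of the 3 replicates combined held 30814 of 658853 and its p-filtered version 18810 of 373845. The arms were divided at 24 Mb, inside a stretch where no list had a site. Of these intervals, 80950 lay on the long arm, 17q, and 25308 on the short arm, 17p.

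The lists come from DO-RIP-seq in HEK293, an established human embryonic kidney cell line. Lysate was cut with micrococcal nuclease, RNA fragments were recovered by immunoprecipitation, and the fragments were sequenced. In 3 samples the antibody was the mouse anti-HuR antibody 3A2, and in 3 others normal mouse sera served as negative control. Digested lysate was pooled and shared out among the reactions, and the labels give no other treatment or genotype. They do not say that replicates came from separate cultures, so each spread over replicates may be technical. No values of the serum controls were analysed here, and the read depth per library is unknown. HuR occupancy was not corrected here for how much of each RNA was present. Whether the authors' score takes RNA amount or the serum controls into account is not known.

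HuR, the product of ELAVL1, is a member of the ELAV family that is mostly nuclear and shuttles to the cytoplasm. It is known to bind uridine-rich and AU-rich elements, in introns of unspliced RNA and in 3′ untranslated regions of mRNA, where it often stabilises the transcript. Chromosome 17 is one of the more gene-rich human chromosomes. Its long arm carries NF1, a negative regulator of RAS, BRCA1, a DNA repair gene, and the HOXB cluster of developmental regulators. These genes are named as background only. The gene annotation used here is on GRCh38, so no gene is assigned to a bin, window or site of the hg19 lists, and no nucleotide sequence is shown.

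The excess of HuR sites on chromosome 17 was larger on the long arm than on the short arm. The share of sites on 17q was 2.30, 2.10 and 1.92 times its share of the length in replicates 1, 2 and 3, with a mean of 2.10 ± 0.189 (SD, n = 3). For 17p the ratio was 1.73, 1.58 and 1.41, with a mean of 1.57 ± 0.157 (SD, n = 3). Length was taken to the end of the last site on each chromosome, chromosome Y included. Each of the 3 replicates gave the higher ratio to 17q, and the arms did not overlap. The chromosome was chosen for its excess, so these ratios describe the lists and were not tested.

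Replicate 1, the shortest list, gave chromosome 17 the largest share of its sites, at 5.58%, against 5.11% in replicate 2 and 4.64% in replicate 3. Among the 186157 top-scoring sites of every list, the shares were 5.58%, 5.37% and 5.00%. The lists thus kept this order at equal size. Chromosome 19 had the same order over the full lists, with 3.37%, 2.75% and 2.65%.

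The excess by length was not an excess by gene number. Over chromosomes 1 to 22 and X, chromosome 17 held 1.91 ± 0.176 times its share of sites by length and ranked 1 of 23. Relative to its share of the protein-coding genes in GENCODE 29, 5.97% or 1186 genes, the ratio was 0.856 ± 0.0789 and the rank 17 of 23. Relative to summed exon length of those genes the ratio was 0.909 ± 0.0838, again with rank 17. Relative to summed gene-body length, introns included, it was 1.45 ± 0.133 with rank 1 (SD, n = 3 for each). The annotation is on GRCh38 and entered only as counts and summed lengths per chromosome or arm.

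The same contrast held within the chromosome. For 17q the ratio was 0.920 ± 0.0826 by coding genes and 1.54 ± 0.139 by gene-body length, with 841 genes. For 17p it was 0.702 ± 0.0700 by coding genes and 1.21 ± 0.121 by gene-body length, with 345 genes (SD, n = 3). Chromosome 19, also gene-rich, had 0.395 ± 0.0529 by coding genes and 1.13 ± 0.151 by gene-body length, from 1472 genes. Arms were separated in the annotation at the widest stretch without a protein-coding gene, which lies between MTRNR2L1 and WSB1.

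**Figure D1:**
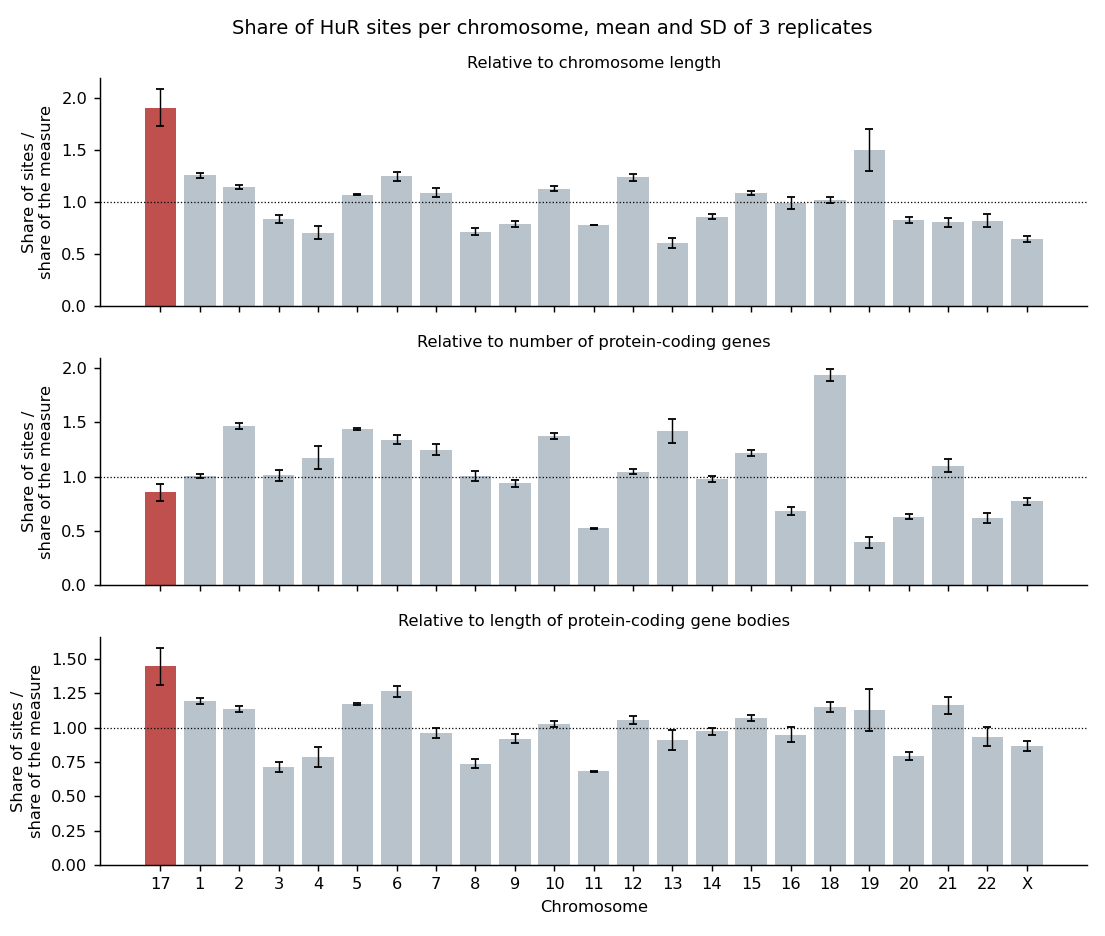
Share of HuR sites on each chromosome divided by that chromosome's share of total length (top), of protein-coding genes (middle) and of protein-coding gene-body length (bottom); bars are means and error bars SDs of 3 replicates, and the dotted line marks 1. Chromosome 17, drawn at the left, stands at 1.91 by length, 0.856 by gene number and 1.45 by gene-body length.

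The excess lay mostly in the number of occupied places and little in how many sites each held. In 10-kb windows counted on each strand, 16.4%, 20.9% and 24.4% of the chromosome 17 windows held a site in replicates 1, 2 and 3, against 8.20%, 11.3% and 14.4% of the windows on the other chromosomes. The ratio was 1.85 ± 0.153 (SD, n = 3). The mean number of sites per occupied window was 3.90, 6.10 and 6.45 on chromosome 17, against 3.63, 5.76 and 6.18 elsewhere, a ratio of 1.06 ± 0.0155 (SD, n = 3). Chromosome 19 had nearly the same share of occupied windows, at 16.2%, 20.6% and 24.6%, but fewer sites in each, at 3.28, 4.59 and 5.01. Sites per occupied window were 1.27 ± 0.0725 times as many on chromosome 17 as on chromosome 19 (SD, n = 3).

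Sites were counted in 1-Mb bins by their midpoints, and each count was divided by the mean over occupied bins outside chromosome 17, which was 63.2, 138 and 189 sites in replicates 1, 2 and 3. This multiple is called the fold of a bin below. Of the 82 bins, 80 held a combined site. The 2 empty bins lay between 23 and 25 Mb, around the arm split. A bin was called high when its fold was above 2 in all 3 replicates, which held for 13.1% of the 2858 occupied bins on chromosomes 1 to 22 and X. On chromosome 17 it held for 30 of 80 bins, or 37.5%, the largest share of any of these chromosomes, followed by 21.95% on chromosome 15 and 20.7% on chromosome 19. Since the chromosome was chosen for its site number, nothing is read from that contrast.

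High bins were 23 of the 57 occupied bins of 17q and 7 of the 23 of 17p. The stricter bound of a fold above 3 in all 3 replicates was met by 11 bins, all on 17q, against 2.9% of bins over all these chromosomes. These 11 bins held 43.9% ± 2.39 of the summed positive excess of chromosome 17 (SD, n = 3), and 14 bins were needed to reach 50%. Summed over bins, 82.0% ± 1.68 of the net excess lay on 17q and 18.02% ± 1.68 on 17p (SD, n = 3). Just inside the bound of 2 lay the bin from 80 to 81 Mb, with folds of 2.29, 2.06 and 2.01, and just outside it the bin from 38 to 39 Mb, with 2.86, 2.50 and 1.95.

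**Figure D2:**
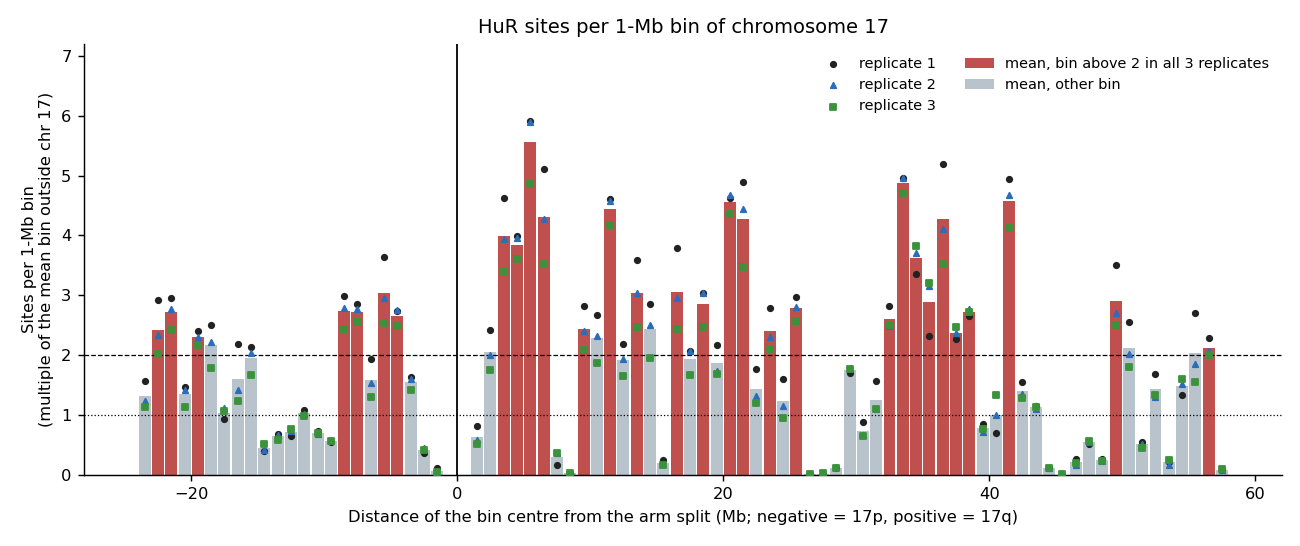
Sites per 1-Mb bin of chromosome 17 as a multiple of the mean occupied bin outside it, against the distance of the bin centre from the arm split in Mb, with 17p negative and 17q positive. Bars are means of 3 replicates, points the replicates, the dotted line 1 and the dashed line 2; the 30 red bins are above 2 in all 3 replicates, and the highest, on 17q, has a mean fold of 5.56.

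Of the 23 high bins of 17q, 13 lay in 3 runs of adjacent bins and 10 stood alone, among them the bins from 65 to 66 and 35 to 36 Mb. Between 27 and 31 Mb lay 4 adjacent high bins with 1241, 2499 and 2904 sites in replicates 1, 2 and 3. Their mean fold was 4.42 ± 0.538, and they held 16.0% ± 0.407 of the positive excess (SD, n = 3). Between 56 and 63 Mb lay 7 adjacent high bins with 1490, 3259 and 4338 sites, a mean fold of 3.34 ± 0.0496 and 19.4% ± 2.94 of the positive excess (SD, n = 3). A pair between 44 and 46 Mb had a mean fold of 4.41 ± 0.439. On 17p there were pairs between 1 and 3, 15 and 17, and 18 and 20 Mb, with mean folds of 2.57 ± 0.361, 2.73 ± 0.219 and 2.85 ± 0.335 (SD, n = 3).

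The densest bin lay from 29 to 30 Mb on 17q. It held 374, 816 and 918 sites in replicates 1, 2 and 3, and its folds were 5.91, 5.90 and 4.86. Its mean fold of 5.56 ± 0.605 ranked 5 of all 2858 occupied bins. The bin from 57 to 58 Mb followed with 314, 687 and 891 sites, folds of 4.97, 4.97 and 4.72, and rank 9. Folds of 4.95, 4.67 and 4.13 were measured from 65 to 66 Mb, and of 4.63, 4.68 and 4.36 from 44 to 45 Mb. In every one of these 4 bins the lowest replicate still stood above 4.

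The next 6 bins by mean fold were also on 17q, so that all 10 of the highest were. The bins from 35 to 36, 30 to 31, 60 to 61 and 45 to 46 Mb had mean folds of 4.45 ± 0.243, 4.30 ± 0.792, 4.28 ± 0.842 and 4.27 ± 0.720. Those from 27 to 28 and 28 to 29 Mb had 3.98 ± 0.616 and 3.85 ± 0.215 (SD, n = 3). The highest bin of 17p, from 18 to 19 Mb, had 3.05 ± 0.553 and ranked 13 on the chromosome and 114 over all bins.

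The same arm also held long stretches with almost no sites. A fold below 0.5 in all 3 replicates was found in 14 bins, 12 on 17q and 2 on 17p, or 17.5% of the 80 bins, against 35.9% of bins over chromosomes 1 to 22 and X. Between 50 and 53 Mb, 3 adjacent bins held 9, 21 and 29 sites in replicates 1, 2 and 3, and between 68 and 71 Mb another 3 held 24, 39 and 62. The 5 emptiest occupied bins began at 69, 50, 51, 32 and 22 Mb, with mean folds of 0.0042, 0.0094, 0.021, 0.028 and 0.067. In the bin from 69 to 70 Mb replicate 1 had no site, and replicates 2 and 3 had 1 each. In the GRCh38 annotation the widest stretches of 17q without a protein-coding gene lie between KCNJ2 and SOX9, at 1.94 Mb, and between CA10 and KIF2B, at 1.66 Mb. Their positions were not carried over to hg19.

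Folds of the 80 bins followed each other closely between replicates. Spearman's rho across bins was 0.979 between replicates 1 and 2, 0.963 between replicates 1 and 3, and 0.988 between replicates 2 and 3. These are descriptions across bins, which share libraries and neighbouring transcripts. High bins had both more occupied windows and more sites in each than the other bins. High bins were chosen by their site counts, and a bin's combined sites are the product of these measures. The contrast therefore largely follows from the choice, and nothing is read from it. The median high bin had sites in 79 of its 10-kb windows, counted by strand, with 8.52 combined sites per occupied window, against 36 windows and 4.84 sites in the median other bin. The bin from 49 to 50 Mb was the fullest in this sense, with 575 combined sites in 37 windows, or 15.5 per window.

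Chromosome 17 carried more minus-strand than plus-strand sites. The plus strand held 47.1%, 47.7% and 48.0% of its sites in replicates 1, 2 and 3, against 51.3%, 51.0% and 51.0% on the other chromosomes. Chromosome 17 thus stood at -3.45 ± 0.634 points relative to the rest (SD, n = 3), negative in 3 of 3 replicates. An exact two-sided sign-flip test gave p = 0.25, the smallest that 3 replicates allow. By mean plus-strand share, chromosome 17 ranked 21 of 23 chromosomes.

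The imbalance was larger on the short arm. The plus-strand share was 50.3%, 51.1% and 50.9% on 17q, against 36.9%, 37.1% and 38.9% on 17p, a difference of 13.1 ± 1.04 points (SD, n = 3, positive in 3 of 3, exact sign-flip p = 0.25). On 17q, 23 of 49 bins with at least 50 combined sites had a plus-strand share below 50% in all 3 replicates and 18 had one above it. On 17p the counts were 16 and 4 of 22 bins. In the combined list 17q had 11984 plus-strand and 11500 minus-strand sites, and 17p had 2864 and 4466. The plus majority of 17q was lost without the bin from 29 to 30 Mb, its largest net plus bin, picked after values were seen. Without this bin the combined list had 10979 plus-strand and 11398 minus-strand sites on 17q. The plus-strand share was then 48.3%, 48.8% and 48.9% in the replicates, still above 17p in all 3. The largest net minus bin of 17q, from 62 to 63 Mb, had 86 plus-strand and 561 minus-strand sites and was kept. Sites on 17p were more one-sided than its genes, since 45.5% of the protein-coding genes of 17p and 46.3% of their gene-body length are on the plus strand in GENCODE 29. For 17q these values are 45.3% and 48.7%, below the plus-strand share of all its sites in each replicate. For the whole chromosome they are 45.4% and 48.0%, against a mean of 47.6% of sites. This nearness combines arms that departed from their genes in opposite directions. Any link between gene strand and site strand was not tested.

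Some single bins leaned much further to 1 strand. Over the 71 bins with at least 50 combined sites, the SD of the plus-strand share over replicates had a median of 2.26 points and reached 12.1 from 70 to 71 Mb. In 10 bins the replicates did not all fall on 1 side of 50%, as from 56 to 57 Mb, with 39.9%, 50.7% and 57.8%, and from 59 to 60 Mb the share ran from 11.6% in replicate 1 to 23.2% in replicate 3. The bin from 3 to 4 Mb had 5.38%, 6.63% and 4.65% of its sites on the plus strand, and the one from 4 to 5 Mb had 12.5%, 11.6% and 14.6%. From 29 to 30 Mb, the densest bin, the plus strand held 90.4%, 91.9% and 90.5%, and the combined list had 1005 plus-strand and 102 minus-strand sites there. From 62 to 63 Mb the plus-strand share was 14.9%, 14.6% and 11.7%. At least 90% of combined sites lay on 1 strand in 5 of 71 bins, or 7.04%, against 25.5% of bins with at least 50 sites over chromosomes 1 to 22 and X.

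**Figure D3:**
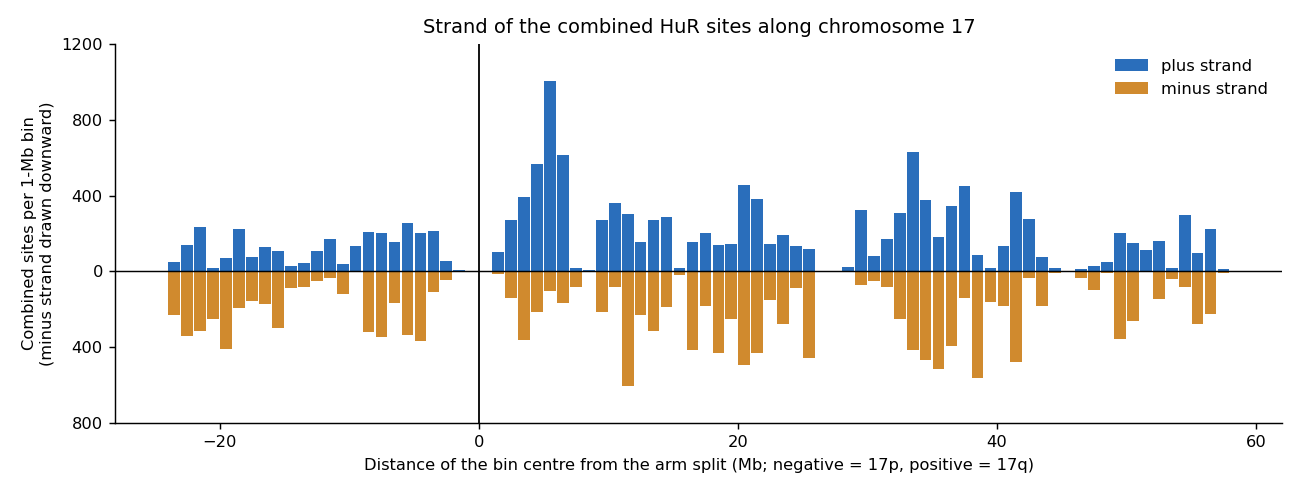
Combined HuR sites per 1-Mb bin of chromosome 17, plus strand upward and minus strand downward, against the distance of the bin centre from the arm split in Mb, with 17p negative and 17q positive. The tallest upward bar is the 17q bin with 1005 plus-strand and 102 minus-strand sites, while downward bars are the longer ones in most 17p bins.

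Read in order along the chromosome, the combined sites formed 2014 runs of consecutive sites on 1 strand. Runs of at least 50 sites numbered 168, with 133 on 17q and 35 on 17p, and held 64.8% of the sites. Of them 86 were on the plus and 82 on the minus strand. The long arm held 76.2% of all combined sites of the chromosome. No run counts are given here for other chromosomes, so these numbers are not read as particular to chromosome 17. The longest run had 500 minus-strand sites over 253 kb, at chr17:59766711-60019885, with 120, 345 and 446 sites in replicates 1, 2 and 3. The run that follows it on the same strand, chr17:60022281-60143015, had 338 sites over 121 kb, and 42.3% of these overlapped all 3 replicate lists, against 21.2% in the longest run. Inside the 29 to 30 Mb bin lay a plus-strand run of 342 sites over 157 kb at chr17:29423056-29579880, with 116, 261 and 292 replicate sites. Other leading runs were chr17:35442401-35766100 on the minus strand with 384 sites and chr17:65714891-65978485 on the plus strand with 367. Runs were examined after the bin values had been seen.

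Site width did not set chromosome 17 apart. Median widths were 45, 55 and 50 nt in replicates 1, 2 and 3, and 45, 55 and 50 nt on the other chromosomes as well. Mean widths were 48.9, 65.8 and 58.8 nt, against 49.1, 65.4 and 57.7 nt elsewhere, a difference of 0.453 ± 0.665 nt (SD, n = 3). It was positive in 2 of 3 replicates and smaller than its spread, with an exact sign-flip p of 0.50. Sites over 200 nt made up 0.173%, 1.81% and 1.02% of chromosome 17 sites, against 0.304%, 2.11% and 1.14% elsewhere, a difference of -0.184 ± 0.102 points (SD, n = 3), negative in 3 of 3 replicates with an exact sign-flip p of 0.25.

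The widest combined site with a match in all 3 replicates was chr17:74559651-74560765 on the plus strand, 1115 nt long. It matched 4 sites in replicate 1 and 2 in each of replicates 2 and 3, where the best-matching sites were 385, 935 and 900 nt long. The next were chr17:29703506-29704515 and chr17:25635316-25636140, both on the plus strand, with 1010 and 825 nt. The fourth and the fifth were chr17:65070866-65071545 on the minus strand with 680 nt and chr17:66527771-66528435 on the plus strand with 665 nt. All 5 were on 17q, which held 76.2% of the combined sites, and 2 lay in high bins, which held 65.4%.

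The scores of chromosome 17 sites stood slightly above the middle of their lists. The LOD score is the authors' value per site, and because its levels differ between lists it is given here as a percentile within the site's own list. The median percentile was 51.9, 52.1 and 51.8 in replicates 1, 2 and 3, against 49.9 in each replicate elsewhere, a difference of 2.05 ± 0.186 (SD, n = 3, higher in 3 of 3, exact sign-flip p = 0.25). The top decile of the lists held 10.6%, 11.4% and 12.2% of chromosome 17 sites, against 9.96%, 9.92% and 9.89% of the others. The bottom decile held 9.97%, 11.3% and 11.5%, against 10.0%, 9.93% and 9.93%, so that replicates 2 and 3 had more at both ends. Among sites found in both other replicates the median differed by 2.18, 0.810 and -0.109, positive in 2 of 3 (0.960 ± 1.15, SD, n = 3, exact sign-flip p = 0.50). Chromosome 19 stood higher than chromosome 17, with medians of 52.9, 52.5 and 53.6, and chromosome 17 minus chromosome 19 was -1.03 ± 0.711 (SD, n = 3, negative in 3 of 3, exact sign-flip p = 0.25). The arms had nearly equal medians, with a mean of 52.0 ± 0.202 on 17q and 52.0 ± 0.133 on 17p (SD, n = 3).

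Bins with more sites tended to have higher scores. Across the 71 bins with at least 50 combined sites, Spearman's rho between mean fold and median percentile in the combined list was 0.586, and between mean fold and median width 0.637. In high bins the median percentile was 53.0, 53.7 and 53.5 in replicates 1, 2 and 3, against 49.9, 48.8 and 48.5 in the other bins. The replicate folds and the scores come from the same libraries, so these are descriptions.

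Among combined sites found in all 3 replicates, chr17:76791686-76791755 on the minus strand led with a LOD of 25.9, rank 25 among 150603 such sites. Its replicate scores stood at percentiles 84.8, 99.996 and 99.990, and its bin had a mean fold of only 1.44. The next was chr17:59758651-59758725 on the minus strand with 25.2, at percentiles 99.94, 99.99 and 98.89, followed by chr17:17155541-17155605 on the minus strand of 17p with 25.0. Of the 10 highest, 6 lay in high bins, which held 65.4% of all combined sites of the chromosome, and 2 on 17p, which held 23.8%. Their combined LOD ranged from 23.6 to 25.9. Chromosome 17 held 105 of the 1506 sites in the top 1% of recurrent sites, or 6.97%, and 5.66% of all recurrent sites.

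In the 10 densest bins, the 10-kb window with the most bases called in all 3 replicates was taken for each. In the 27 to 28 Mb bin it was the plus-strand window chr17:27870001-27880000, where all 3 called 2160 nt and held 34, 46 and 45 sites. The sites there ranked low, with median percentiles of 16.2, 8.72 and 7.88. In the 60 to 61 Mb bin it was chr17:60080001-60090000 on the minus strand, with 1810 nt and 31, 33 and 41 sites at median percentiles of 57.97, 55.6 and 53.6. In the 65 to 66 Mb bin it was chr17:65070001-65080000 on the minus strand with 1445 nt, which includes the 680-nt site named above. The other 7 windows held between 725 and 1345 nt called in all 3 replicates.

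Dense windows with low scores were few. Of the 225 windows on chromosome 17 with at least 10 sites in every replicate, 6 had a median percentile below 20 in all 3, or 2.67%, against 3.03% of such windows over chromosomes 1 to 22 and X. One was the window at 27870001 and another chr17:28790001-28800000 on the plus strand, with 15, 23 and 25 sites at median percentiles of 13.5, 8.40 and 6.62. This bound was set after the window values had been seen.

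At a minimum overlap of 1 nt, recurrence on chromosome 17 was higher in replicates 2 and 3 and nearly equal in replicate 1. Of replicate 1 sites on the chromosome, 89.0% overlapped a same-strand site in both other lists by at least 1 nt, against 89.1% elsewhere. The share was 41.8% against 37.6% in replicate 2 and 34.5% against 28.1% in replicate 3. Over all chromosomes the shares were 89.1%, 37.8% and 28.4%. The mean difference was 3.49 ± 3.34 points (SD, n = 3), positive in 2 of 3 replicates, with an exact sign-flip p of 0.50. When at least 50% of each interval had to be shared, the difference was 3.47, 4.14 and 5.48 points, positive in 3 of 3 (4.36 ± 1.02, SD, n = 3, exact sign-flip p = 0.25). Each recurrence share uses the other 2 lists, so the 3 differences are not independent. Their SDs, signs and p-values cannot be read as those of 3 separate replicates. Chromosome 19 had recurrence much like chromosome 17, at 86.6%, 44.4% and 34.3%, and chromosome 17 minus chromosome 19 averaged -0.0094 ± 2.53 points (SD, n = 3). Sites seen in 1 replicate alone made up 4.71%, 13.2% and 28.9% of chromosome 17 sites, against 4.35%, 12.7% and 35.3% elsewhere, higher in replicates 1 and 2 and lower in replicate 3. The shortest list, replicate 1, gave chromosome 17 its largest share, as stated above, and the part of this in the recurrence of the longer lists was not tested.

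Local crowding on chromosome 17 was close to, and slightly below, that elsewhere, with a mean of 2.64 ± 0.559 and 2.72 ± 0.486 same-strand sites within 1 kb of a site (SD, n = 3). Taken within replicates, the difference was -0.0789 ± 0.0753, negative in 3 of 3 (SD, n = 3, exact sign-flip p = 0.25). Among sites with no neighbour within 1 kb, recurrence averaged 47.3% on chromosome 17 and 42.7% elsewhere, a difference of 4.61 ± 3.32 points, positive in 3 of 3 replicates (SD, n = 3). With 1 to 2 neighbours it averaged 53.7% and 49.1%, a difference of 4.61 ± 4.59 points, positive in 2 of 3 (SD, n = 3). With 3 or more neighbours it averaged 59.3% and 57.3%, a difference of 1.97 ± 2.71 points, positive in 2 of 3. Between the arms recurrence differed by 0.586 ± 1.18 points, with means of 55.2% on 17q and 54.6% on 17p, less than the spread between replicates (SD, n = 3). Here too each recurrence share uses the other lists, so the differences of the 3 replicates are not independent.

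In the combined list, 8517 of the 30814 chromosome 17 sites, or 27.6% (95% Wilson interval 27.1 to 28.1), overlapped all 3 replicate lists, against 22.6% of the sites elsewhere and 22.9% over all chromosomes. On chromosome 19 the share was 27.8%. A site in all 3 lists needs a match in replicate 1, the shortest list. That list held 5.58% of its sites on chromosome 17, while the combined list held 4.68% of its own there. The part of this in the higher share was not tested. Of the chromosome 17 sites, another 29.8% overlapped 2 lists and 32.3% overlapped 1. A further 3146 sites, or 10.2%, overlapped none, against 11% over all chromosomes. A combined site counted as kept by the authors' p filter when an interval of the p-filtered list, most of whose intervals have other ends than those of the combined list, overlapped it on the same strand. This held for 17395 chromosome 17 sites, or 56.5% (55.897 to 57.004), against 52.1% elsewhere and 52.3% over all chromosomes. Among sites in all 3 lists 98.1% were kept on chromosome 17 and 98.1% elsewhere. The arms were alike here too, with 27.6% in all 3 lists on 17q and 27.7% on 17p. These intervals cover counting error only, and the combined list contains the replicates' reads.

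Among the 71 bins with at least 50 combined sites, the share overlapping all 3 lists ran from 10.0% to 36.6%, with a median of 27.8%. The lowest was the sparse bin from 31 to 32 Mb, and the next the bin from 64 to 65 Mb, with 11.01%. High bins as a group had 28.03% and the other bins 26.9%. The rho between mean fold and this share was 0.412 across the 71 bins.

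**Figure D4:**
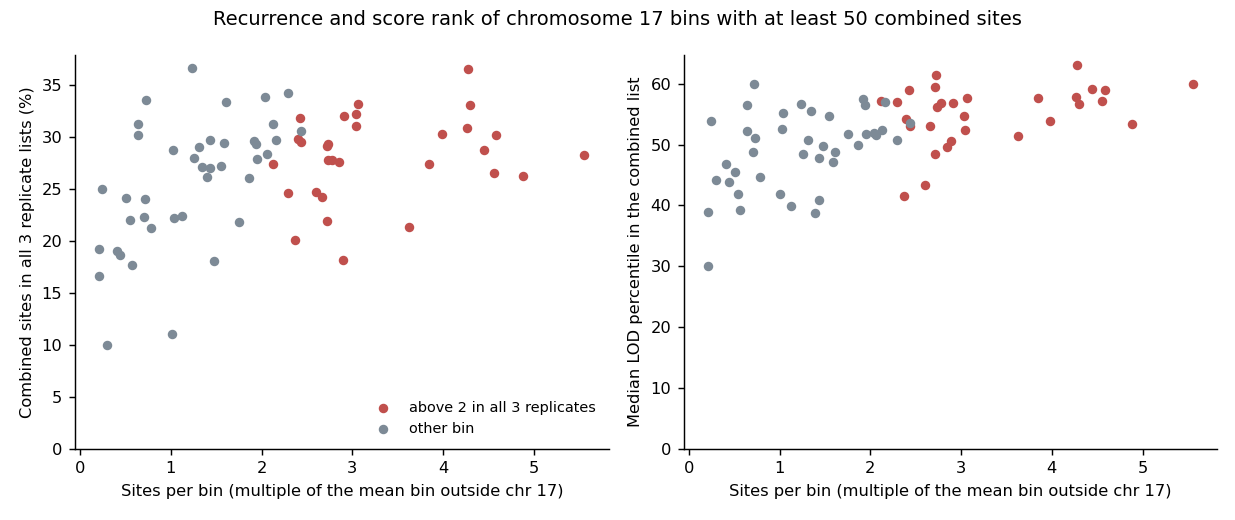
Each point is a 1-Mb bin of chromosome 17 with at least 50 combined sites. The share of combined sites found in all 3 replicate lists (left, percent) and the median LOD percentile in the combined list (right) are plotted against the mean fold of the bin; red bins have a fold above 2 in all 3 replicates. The shares run from 10.0% to 36.6%.

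The block from 56 to 63 Mb had a lower share of sites in all 3 lists than the one from 27 to 31 Mb. Of its combined sites 24.4% overlapped all 3 lists, against 29.6% of those from 27 to 31 Mb. The share was 27.6% on the whole of chromosome 17 and 22.9% over all chromosomes. Within the block, the bins from 56 to 57 and 57 to 58 Mb had 24.7% and 26.2%. The bins from 58 to 59, 59 to 60, 61 to 62 and 62 to 63 Mb had 21.3%, 18.2%, 20.1% and 21.9%, while the bin from 60 to 61 Mb between them had 36.5%. In this inner bin the folds were 5.19, 4.12 and 3.53 in replicates 1, 2 and 3. In the bin from 59 to 60 Mb they ran the other way, at 2.32, 3.16 and 3.20.

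Most bins of chromosome 17 had a higher fold in replicate 1 than in replicate 3. The ratio of the fold in replicate 3 to that in replicate 1 had a median of 0.822 over the 71 bins and was above 1 in 15 of them, or 21.1%, against a median of 1.02 and a share of 53.3% over 2072 bins elsewhere. The largest ratios were 2.31 from 31 to 32 Mb, where replicate 1 had 10 sites, and 1.91 from 64 to 65 Mb, where the replicates had 44, 138 and 251 sites. The bin from 59 to 60 Mb followed with 1.38. The lowest ratio, 0.563, was measured from 7 to 8 Mb on 17p, where the folds were 2.18, 1.41 and 1.23. Folds are scaled to the mean bin outside chromosome 17, which sets the bins elsewhere near 1 on average. Other chromosomes also fell from replicate 1 to replicate 3. By length, chromosome 19 held 1.73, 1.41 and 1.36 times its share of sites in replicates 1, 2 and 3. Chromosome 16 held 1.06, 0.963 and 0.955 times its share, while chromosome 4 rose, at 0.640, 0.710 and 0.770.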

How the data were processed

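The authors deposited 5 interval lists on hg19 (GRCh37), 1 for each HuR replicate and 2 for the replicates combined, each with a LOD score per interval. The submitters' processing notes name TopHat2 2.0.8 and cutadapt 1.0. No source used here gives the caller behind the intervals or the scale of the score. Per the names of the deposited lists, scores lie above 0, which the values bear out, and 1 combined list was limited at p 0.05. Interval ends lie on a grid of 5 nt.

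Titles gave the group and replicate number of the 3 HuR samples. Sites were assigned to arms and bins by midpoint, percentiles are mid-ranks within a list, and recurrence needs a same-strand overlap of at least 1 nt. Python 3.11.15, numpy 2.4.6, pandas 2.3.3, scipy 1.17.1 and matplotlib 3.10.9 were used. The code was tested on simulated data. Comparisons between chromosome 17 and the rest used exact two-sided sign-flip tests over replicates, with p-values not adjusted for the number of measures. Gene counts and lengths came from GENCODE 29, which is on GRCh38. Named items are the 10 highest and 5 lowest bins, 1 window for each of those 10 bins, the 10 highest-scoring and the 5 widest recurrent sites. Not every one is printed. Strand runs, gene content, single bins named for strand or replicate differences, and windows of low score were added after values were seen. The members and measures were chosen with earlier results of these data known. Planned gene lists were not used, because no hg19 annotation was at hand.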

Additional observations from a re-analysis of the deposited data

How the results depend on the processing

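There were 76 alternative values for 12 results. Of these, 63 kept within the replicate SD, a factor of 1.5 for counts or the 95% Wilson interval for combined shares, and 13 moved. Some of the 63 could not have moved. A mean of 3 values, each taken from its own list, cannot shift by more than their SD when a replicate is left out. For such means, values with a replicate left out could only count as kept, and nothing is read from them. With sites found in both other replicates, the 17q ratio was 2.32, the percentile difference 0.960 ± 1.15, positive in 2 of 3 replicates, and the 17p plus-strand share 36.3%. Above a fold of 3, high bins numbered 11. Using means, the width difference was 0.453 nt and the percentile difference 1.07. At LOD above 2, the median width difference was 1.67 nt and the p filter kept 61.0%. With equal numbers of top sites, the plus-strand share was 51.2% on 17q and 36.4% on 17p. With at least 50% of each interval shared, 17.03% of combined sites were in all 3 lists and 45.4% passed the p filter. Without the bin from 29 to 30 Mb the 17q plus-strand share was 48.7%. For all 13 the cause was not tested. Leaving out each replicate gave 17q ratios of 2.01 to 2.20, 17p ratios of 1.49 to 1.65 and 30 to 37 high bins. The highest count came without replicate 3. A high bin must pass in every replicate used, so leaving out a replicate could only keep or raise this count. Nothing is read from its not falling. Settings for arm strand shares, and for bins at equal list sizes, were chosen after seeing the data. Unknown depth limits any statement on missing sites. No paired analysis was possible because every list analysed here is labelled as HuR, so no HuR sample could be set against a control of its number. Differences between chromosomes or arms were already taken within each replicate.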
